A study of Mus musculus with 5 samples.

Results

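The 10 genes described here encode enzymes that build glycosaminoglycan chains: Xylt1, Xylt2, Ugdh, Chsy1, Chpf, Chst3, Chst11, Ext1, Ext2 and Ndst1. They were chosen by gene symbol, for what the enzymes do, with earlier results of these data known. The table held 24062 genes measured by RNA sequencing of mouse mitral valve leaflets. All 10 are in the table, all 10 had reads and all 10 passed the filter on low counts that left 14244 genes for testing. The study compared leaflets of knockout mice (KO, 3 libraries) with those of wild-type mice (WT, 2 libraries) for Ift88, a gene of intraflagellar transport, the process that builds cilia. The genotype field gives NfatC1Cre(+) to both groups, so the Cre recombinase is carried by the controls too. A Cre driven from Nfatc1 acts in the endocardial lineage, so leaflet cells outside that lineage can keep an intact gene. The same field writes Ift88f/f for WT and Ift88+/+ for KO, which is the reverse of what the library titles say, and the titles were used here. Age and sex of the animals and the deleted exons are not stated. No label says that each library is a separate animal, so the p-values cover the spread from library to library, which may be technical.

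Glycosaminoglycans are long sugar chains which, apart from hyaluronan, are sulphated and attached to proteoglycan core proteins. In the mitral valve they fill the spongiosa, the soft middle layer of the leaflet. Synthesis of chondroitin, dermatan and heparan sulphate starts in the Golgi when a xylosyltransferase puts xylose on a serine of the core protein, after which a short linker is completed. The chain is then extended either as chondroitin or dermatan sulphate, by the chondroitin synthases, or as heparan sulphate, by the exostosins, and sulphotransferases modify it as it grows. Ugdh, a cytosolic enzyme, makes the glucuronic acid donor used by both kinds of chain.

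The libraries held between 23361414 and 53789026 counted reads. Ift88 was lower in every KO library (0.409 to 3.92 CPM, reads scaled to library size by TMM) than in both WT libraries (7.54 and 19.8), which goes with the titles. The libraries differed in 2 further ways. The first cannot be told apart from genotype here, and the part of the second in the enzyme values was not tested. First, the slope of log2 CPM on transcript length, per 10-fold length, was -0.98 and -0.70 in WT replicates 1 and 2 and 0.20, 0.82 and 0.66 in KO replicates 1, 2 and 3, so long transcripts were counted relatively more often in every KO library. Second, 12 cardiomyocyte markers summed to 67840 CPM in WT replicate 1, 109 in WT replicate 2 and 27960 to 38440 in KO. Of these 12 genes only Mb, the gene for myoglobin, was at 0, in WT replicate 2. The 10 interstitial markers summed to 2833 CPM in WT replicate 1, 7801 in WT replicate 2 and 8068 to 11790 in KO, and the 10 endothelial markers to 338, 2730 and 1926 to 3056. None of these 20 valve markers was at 0 in a library. In bulk tissue, fewer cells of a type and less RNA per cell cannot be told apart.

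**Figure D1:**
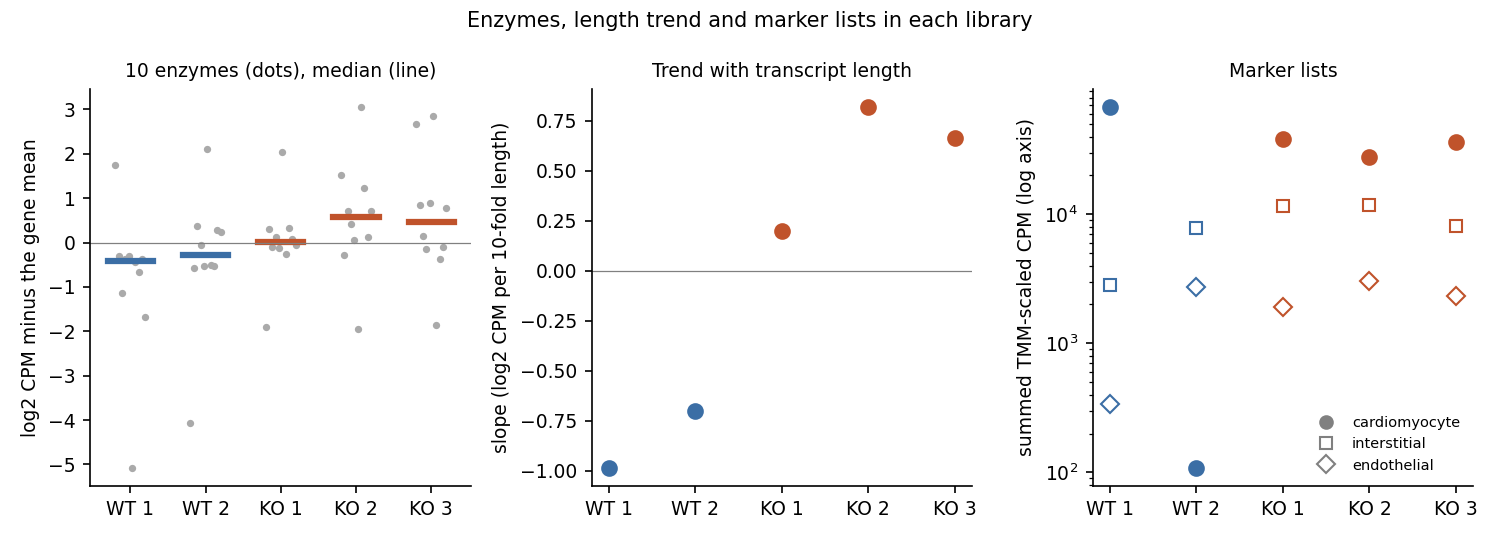
Left, log2 CPM of each of the 10 enzymes minus its mean over the 5 libraries (grey dots) with the median (coloured line, blue for WT and red for KO). Middle, slope on log10 transcript length of log2 CPM minus each gene's mean over the 5 libraries, for tested genes with a length. Right, summed CPM of cardiomyocyte, interstitial and endothelial markers on a log axis. Both the enzyme medians and the length slopes are lowest in the 2 WT libraries, and cardiomyocyte markers are at 109 CPM in WT replicate 2 against at least 27960 in the others.

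Across the 10 enzymes, chosen with earlier results of these data known, the fold changes leaned towards KO, and none passed the test. All 10 log2 fold changes of KO against WT were above 0, where 49.4% of all tested genes had a positive value; with the size factors of DESeq2 it was 9 of 10 (46.4% of all genes), Ext2 being the exception. They ran from 0.04 (Ext2) to 2.14 (Chst11), with a median of 0.82 against -0.01 over all tested genes. By the edgeR quasi-likelihood test 0 of 10 passed an adjusted p of 0.05 (smallest adjusted p = 0.812, Ext1), and 0 of 10 had an unadjusted p under 0.05. Over all genes 0% passed the adjusted threshold and 5.84% had an unadjusted p under 0.05. DESeq2, limma-voom and the edgeR likelihood-ratio test also called 0 of the 10, where they called 1.53%, 0% and 0.351% of all genes. Xylt2, Chpf and Ext1 had every KO library above both WT libraries, which was the case for 13.5% of all genes, and no enzyme had every KO library below both. Groups that do not overlap in either direction were found for 24.6% of all genes. The median log2 fold change was 1.10 for the 10 interstitial markers and 0.87 for the 10 endothelial ones, with 0 of these 20 passing the test, and their part in the enzyme values was not tested. The enzymes without overlap in either direction numbered 5 without WT replicate 1 (57.6% of all genes in that fit). Of these, 4 had KO above and 1, Ext2, had KO below. They numbered 8 without WT replicate 2 (60.8%) and 5 without KO replicate 3 (37.1%), all with KO above.

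The fold changes were smaller once the length trends of the libraries were taken into account. The longest transcripts of the 10 enzymes measure 3333 to 9020 nt, and 9 of the 10 exceed the median of all tested genes, 3333 nt. Once each library's length trend had been taken out (length correction), the median log2 fold change of the 10 was 0.21 against -0.10 over all genes. In that form 7 of 10 were above 0 (44.4% of all genes), and Chpf alone had no overlap between groups, with KO above. Of all genes 20.7% had no overlap in either direction, and 9.38% had every KO library above both WT libraries. Without length correction, the median was 0.55 without WT replicate 1 (0.15 over all genes) and 0.48 without KO replicate 3 (-0.03 over all genes). In the first of these fits Xylt1 had no WT read and counted as a positive value.

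**Figure D2:**
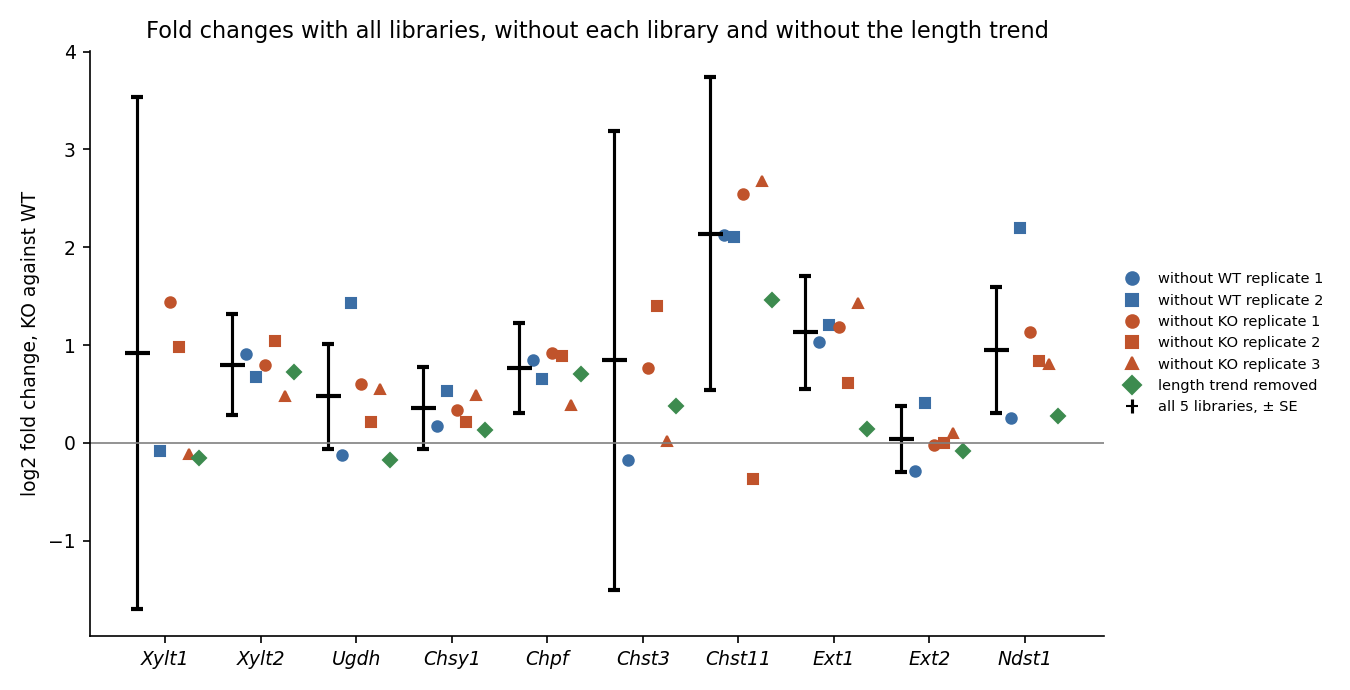
Log2 fold change of KO against WT for each enzyme, with all 5 libraries (black, ± SE), without each library in turn and after length correction (green). The points left out are those of Xylt1 without WT replicate 1 and of Chst3 without WT replicate 2, because no WT read remains there. Xylt2, Chsy1, Chpf, Ext1 and Ndst1 stay above 0 in every form shown, and Ext1 is at 1.13 before and 0.14 after length correction.

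Within a library, levels per length covered a wide range. As CPM per kilobase of the longest transcript, averaged over the 5 libraries, Ext2 stood highest at 46.5, followed by Ugdh at 31.8 and Chpf at 13.2. In all 5 libraries Ext2 was above Ugdh and Ugdh above Chpf. Ndst1 (8.10), Chsy1 (7.21) and Xylt2 (7.08) followed, and the order of neighbours among these 3 held in only 3 of 5 libraries. Ext1 (4.08) was above Chst11 (1.15) in all 5 libraries. Chst3 (0.479) and Xylt1 (0.129) were lowest, and each of Chst11, Chst3 and Xylt1 changed place with a neighbour in at least 2 libraries. For every pair of neighbours in this order the ranges over libraries overlapped.

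**Figure D3:**
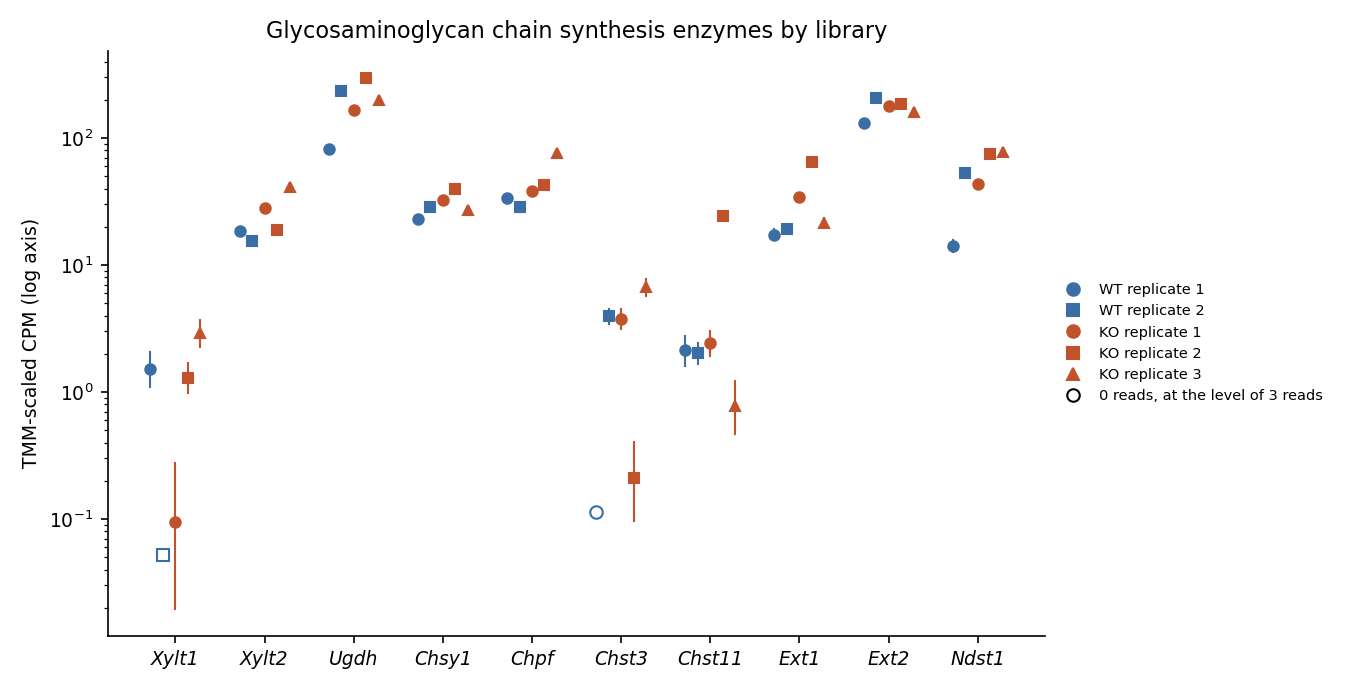
Level of each enzyme in each library, as TMM-scaled CPM on a log axis, with 95% exact Poisson intervals (counting error only). WT is blue and KO red, and open symbols mark libraries with 0 reads, placed at the level of 3 reads. Ext2 and Ugdh stay above 80 CPM in every library, and Xylt1, Chst3 and Chst11 spread over more than 10-fold.

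The sequences upstream of the start site are shown for the enzyme with the highest level per length and the smallest spread over libraries, Ext2, and for the one with the largest fold change, Chst11. Both come from RefSeq on GRCm38.p6, cover 250 bases ending at the start site, and overlap no annotated exon. Capitals mark GC boxes (GGGCGG or its reverse complement CCGCCC).
Ext2, chr2:93822569-93822818, minus strand: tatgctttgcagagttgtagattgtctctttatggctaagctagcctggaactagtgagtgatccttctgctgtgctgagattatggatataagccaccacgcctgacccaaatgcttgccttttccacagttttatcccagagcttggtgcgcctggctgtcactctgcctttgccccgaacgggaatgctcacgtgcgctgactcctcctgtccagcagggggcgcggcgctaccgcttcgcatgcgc
Chst11, chr10:82985247-82985496, plus strand: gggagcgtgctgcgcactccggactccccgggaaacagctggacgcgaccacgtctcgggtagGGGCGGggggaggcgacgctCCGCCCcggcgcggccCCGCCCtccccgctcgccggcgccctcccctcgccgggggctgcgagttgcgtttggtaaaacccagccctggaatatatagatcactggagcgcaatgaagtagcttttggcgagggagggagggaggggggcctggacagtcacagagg
The Chst11 window holds 3 GC boxes and 26 CpG dinucleotides and the Ext2 window 0 and 12. The table of RefSeq promoters used here matched 7 of the 10 enzymes (all but Xylt1, Ext1 and Ndst1). At least 1 GC box was present in 6 of the 7, where 55.8% of the windows of tested genes and 32.7% of all windows hold one. Of the 7 windows 0 held TATAAA on either strand (6.74% of windows of tested genes do) and 1, that of Chsy1, held CCAAT (34.5%). These letter matches are a description only.

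Xylt1 and Xylt2 encode the xylosyltransferases that start chondroitin, dermatan and heparan sulphate chains. Xylt2 (chr11:94663851-94677515, minus strand) carried most of these reads. Its WT replicates 1 and 2 had 18.4 and 15.3 CPM, and KO replicates 1, 2 and 3 had 28.2, 18.8 and 41.0. Every KO library was above both WT libraries, but KO replicate 2 exceeded WT replicate 1 by less than their counting intervals (17.5 to 20.2 and 16.8 to 20.1). With the size factors of DESeq2 these 2 libraries changed order and the groups overlapped, as they also did without KO replicate 1 and after length correction. WT averaged 16.9 ± 2.15 CPM (SD, n = 2) and KO 29.4 ± 11.1 (SD, n = 3). Xylt2 had a log2 fold change of 0.80 (SE 0.52, edgeR adjusted p = 0.863), with 0.72 after length correction and 0.48 without KO replicate 3.

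Xylt1 (chr7:117380979-117673580, plus strand) had few reads. It had 40 reads in WT replicate 1 and 0 in WT replicate 2, which at that depth allows up to 0.052 CPM. The KO replicates 1, 2 and 3 had 3, 55 and 71 reads, or 0.0948, 1.30 and 2.91 CPM, against 1.52 in WT replicate 1. Both groups thus held a library at or near 0 and at least one above 1 CPM. Xylt1 had a log2 fold change of 0.92 with an SE of 2.62 (edgeR adjusted p = 0.984), which was -0.09 without WT replicate 2 and -0.12 without KO replicate 3. Without WT replicate 1 no WT read remains.

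Ugdh (chr5:65413221-65435949, minus strand) encodes UDP-glucose dehydrogenase, which makes UDP-glucuronic acid. Its WT replicates 1 and 2 had 81.8 and 235 CPM, and KO replicates 1, 2 and 3 had 167, 295 and 199. The low value was that of WT replicate 1, and WT replicate 2 lay above 2 of the 3 KO libraries. For Ugdh the log2 fold change was 0.48 (SE 0.54, edgeR adjusted p = 0.931). Without WT replicate 1 it was -0.13, without WT replicate 2 it was 1.43, and after length correction -0.17. Exons of the predicted gene Gm43552 overlap Ugdh, and those of Gm26827 overlap Chsy1, so some reads of either may belong to the neighbour.

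Chsy1 and Chpf encode chondroitin synthase 1 and the chondroitin polymerizing factor, partners in extending the chondroitin chain. Chsy1 (chr7:66109515-66173798, plus strand) measured 23.0 and 28.6 CPM in WT replicates 1 and 2, against 32.5, 39.6 and 27.0 for KO replicates 1, 2 and 3. The groups overlapped through KO replicate 3, and no library was far from the others. Its log2 fold change was 0.36 (SE 0.42, edgeR adjusted p = 0.934), 0.18 without WT replicate 1 and 0.13 after length correction.

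Chpf (chr1:75474569-75479307, minus strand) measured 33.4 and 28.6 CPM in WT replicates 1 and 2, against 38.1, 42.8 and 76.7 for KO replicates 1, 2 and 3. The groups did not overlap, and KO replicate 3 was well above the other KO libraries. WT averaged 31.0 ± 3.44 CPM (SD, n = 2) and KO 52.5 ± 21.1 (SD, n = 3). This gave Chpf a log2 fold change of 0.76 (SE 0.46, edgeR adjusted p = 0.849). It was 0.39 without KO replicate 3 and 0.70 after length correction. Chpf and Xylt2 have the shortest transcripts of the 10 (3333 and 3442 nt), and their values moved little with that correction.

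Chst3 and Chst11 encode sulphotransferases that act on different carbons of the N-acetylgalactosamine in chondroitin, the first making chondroitin 6-sulphate and the second chondroitin 4-sulphate. Both were low and uneven. Chst3 (chr10:60181532-60219260, minus strand) had 0 reads in WT replicate 1, which allows up to 0.114 CPM, and 3.95 CPM in WT replicate 2. Its KO replicates 1, 2 and 3 had 3.79, 0.212 and 6.67 CPM, the middle value resting on 9 reads. Each group thus held a library at or under 9 reads and at least one above 3 CPM. For Chst3 the log2 fold change was 0.84 (SE 2.35, edgeR adjusted p = 0.984), -0.18 without WT replicate 1, 0.02 without KO replicate 3 and 3.83 (SE 3.56) with the title code (IR28N in 3 libraries, against other codes) as a covariate.

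Chst11 (chr10:82985498-83195900, plus strand) had the largest fold change of the 10, and 1 library carried it. Its WT replicates 1 and 2 had 2.13 and 2.03 CPM, and KO replicates 1, 2 and 3 had 2.43, 24.3 and 0.778. KO replicate 1 was close to both WT libraries and KO replicate 3 below them, while KO replicate 2 had 1029 reads against 19 to 117 in the other 4 libraries. The log2 fold change was 2.14 (SE 1.60, edgeR adjusted p = 0.883) -0.37 without KO replicate 2 and 0.81 with the title code as a covariate. In KO replicate 2, 6 markers of mesothelium, the cell layer on the heart's outer surface, summed to 214 CPM against 4.91 to 33.4 elsewhere. All 6 had reads there, and 2 to 4 of them were at 0 in each other library. The part of these cells in the Chst11 value was not tested.

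Ext1 and Ext2 encode the exostosins, which form one complex that polymerizes heparan sulphate. Ext1 (chr15:53064038-53346159, minus strand) measured 17.4 and 19.1 CPM in WT replicates 1 and 2, against 34.3, 64.2 and 21.4 for KO replicates 1, 2 and 3. The groups did not overlap, but the counting intervals of KO replicate 3 (19.6 to 23.3) and WT replicate 2 (18.0 to 20.3) did. WT averaged 18.3 ± 1.22 CPM (SD, n = 2) and KO 40.0 ± 22.0 (SD, n = 3). Ext1 had a log2 fold change of 1.13 (SE 0.58, edgeR adjusted p = 0.812), with an unadjusted p of 0.0978, the smallest of the 10. It was 0.61 without KO replicate 2. After length correction it was 0.14 and the groups overlapped, and the longest Ext1 transcript, at 7663 nt, exceeds that of 93.4% of tested genes.

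Ext2 (chr2:93661028-93822568, minus strand), whose upstream sequence is given above, was the steadiest enzyme. Its WT replicates 1 and 2 had 132 and 208 CPM, and KO replicates 1, 2 and 3 had 180, 185 and 159. The KO libraries lay between the 2 WT libraries. WT averaged 170 ± 54.1 CPM (SD, n = 2) and KO 175 ± 13.7 (SD, n = 3). Ext2 had a log2 fold change of 0.04 (SE 0.34, edgeR adjusted p = 0.992), and its sign turned under several settings, for example to -0.28 without WT replicate 1 and -0.03 with the size factors of DESeq2.

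Ndst1 (chr18:60684494-60748650, minus strand) encodes an N-deacetylase and N-sulphotransferase, which makes the first modification of the heparan chain. Its WT replicates 1 and 2 had 14.1 and 53.3 CPM, and KO replicates 1, 2 and 3 had 43.4, 74.5 and 77.0. WT replicate 1 was far below the other 4 libraries, and WT replicate 2 lay above KO replicate 1. Its log2 fold change of 0.95 (SE 0.64, edgeR adjusted p = 0.872) became 0.25 without WT replicate 1 and 2.20 without WT replicate 2. Length correction gave 0.27. WT replicate 1 was also the library with the lowest endothelial and interstitial marker sums and the highest cardiomyocyte sum. Their part in the Ndst1 and Ugdh values was not tested.

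Ratios of 2 enzymes within a library do not depend on how libraries are scaled, and 4 were compared: Ext1 to Ext2, Xylt1 to Xylt2, Chsy1 to Chpf and Chst3 to Chst11. The log2 ratio of Ext1 to Ext2 reads was -2.92 and -3.45 in WT replicates 1 and 2 and -2.39, -1.53 and -2.90 in KO replicates 1, 2 and 3. It was thus higher in every KO library, by a mean of 0.91, though KO replicate 3 and WT replicate 1 differed by only 0.02. The exact two-sided permutation test gave p = 0.2, the smallest that 2 against 3 libraries allow, and 0.8 adjusted over the 4 ratios. Ext1 has the longer transcript of the 2 (7663 against 3721 nt), and the length slopes of the libraries also split by group. The part of the length trend in this ratio was not tested and cannot be told apart from genotype.

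The other 3 ratios overlapped between groups (exact two-sided permutation p = 0.8 for each, before and after adjustment). The log2 ratio of Chsy1 to Chpf was -0.54 and 0.00 in WT and -0.23, -0.11 and -1.51 in KO replicates 1, 2 and 3, where the last stood apart through its high Chpf. That of Chst3 to Chst11 ran from -6.82 to 0.96 in WT and from -6.76 to 3.07 in KO. The -6.82 of WT replicate 1 rests on 0 reads of Chst3 and the 0.5 reads added to each count. Which of the 2 sulphotransferases had more reads thus changed from library to library within both groups. Xylt2 had more reads than Xylt1 in all 5 libraries, with log2 ratios from -10.8 to -3.58. The -10.8 of WT replicate 2 likewise rests on 0 reads, those of Xylt1.

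**Figure D4:**
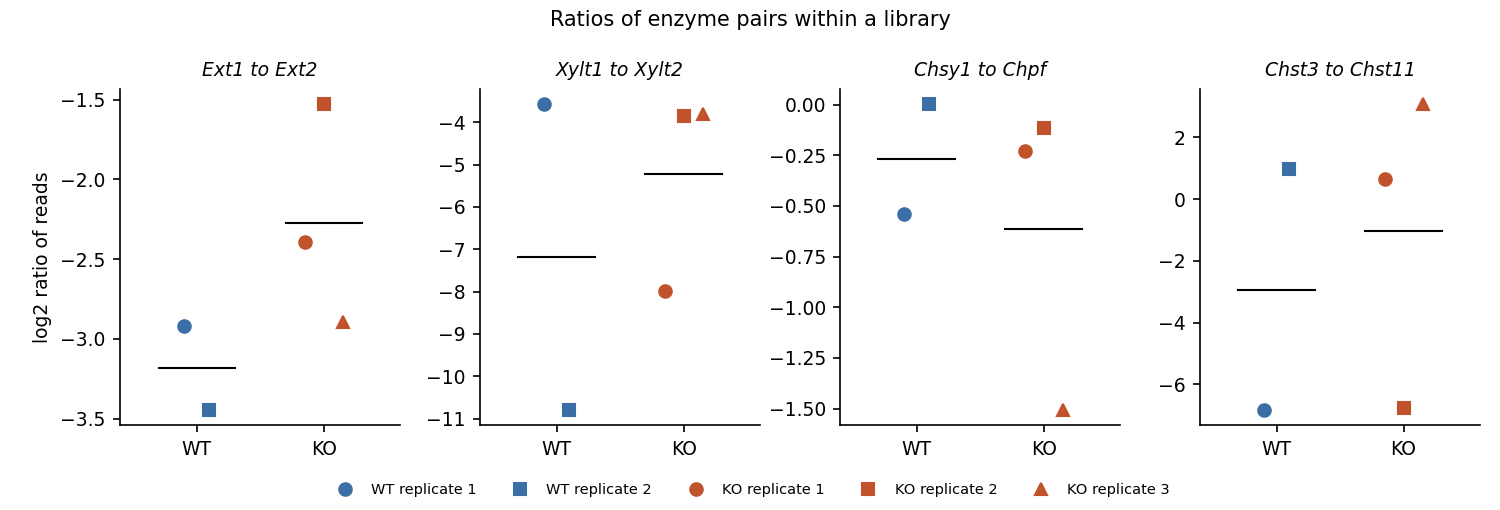
Log2 ratio of read counts of 4 enzyme pairs in each library (0.5 reads added to each count), with group means as black lines. WT is blue and KO red, and each panel has its own axis. Ext1 to Ext2 is the one pair whose KO libraries all lie above both WT libraries.

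The other genes of the synthesis pathway had fold changes of both signs. Of 47 other synthesis genes with a row, 40 were tested, and 22 had a positive and 18 a negative log2 fold change, with a median of 0.18. By the edgeR quasi-likelihood test 0 of 40 passed and 3 had an unadjusted p under 0.05 (5.84% of all genes). In 9 every KO library was above both WT libraries and in 3 below both, against 13.5% and 11.1% of all genes. The median was 0.86 without WT replicate 2, -0.01 without KO replicate 3, 0.54 with the title code as a covariate and -0.07 after length correction. Over all genes the median in the same fits was 0.25, -0.03, 0.06 and -0.10, in that order. The difference between the 10 enzymes and these 40 was not tested, since the 10 were chosen with results of these libraries known.

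By role, 1 of 5 further linker genes was positive (median -0.31), the 2 smallest p-values being those of B4galt7 (log2 fold change -0.46), which adds the first galactose, and Fam20b (-0.31), which phosphorylates the xylose. Of 10 precursor genes 5 were positive (median 0.16). Slc35b2, the Golgi carrier of the sulphate donor PAPS, had WT values of 361 and 387 CPM and KO values of 186, 118 and 273, lower in all 3 KO libraries (-0.96, SE 0.42, edgeR adjusted p = 0.810). Slc26a2, a sulphate importer of the cell membrane, had WT values of 1.83 and 11.6 CPM and KO values of 20.4, 15.9 and 19.1 (1.46).

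Among 11 further chondroitin and dermatan genes 8 were positive (median 0.49). Csgalnact1, which adds the first N-acetylgalactosamine and so commits the linker to chondroitin, had WT values of 9.97 and 16.0 CPM and KO values of 63.8, 22.9 and 32.2 (1.61, SE 0.61, edgeR adjusted p = 0.810). Its paralogue Csgalnact2, picked out after its values were seen, had WT values of 77.6 and 70.5 CPM and KO values of 34.7, 44.6 and 55.0, so every KO library lay below both WT libraries (-0.73, SE 0.36, edgeR adjusted p = 0.812). Dse, the epimerase that turns chondroitin into dermatan sulphate, had a log2 fold change of 0.94. Among 14 further heparan genes 8 were positive (median 0.46). Sulf2, which removes 6-O-sulphates outside the cell, had WT values of 50.2 and 44.8 CPM and KO values of 99.7, 86.4 and 104, with little spread within either group (1.03, SE 0.32, edgeR adjusted p = 0.810). Hs6st2, a 6-O-sulphotransferase, had WT values of 7.50 and 16.5 CPM and KO values of 29.8, 46.1 and 29.9 (1.55). In each of Csgalnact1, Dse, Sulf2 and Hs6st2 every KO library was above both WT libraries.

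**Figure D5:**
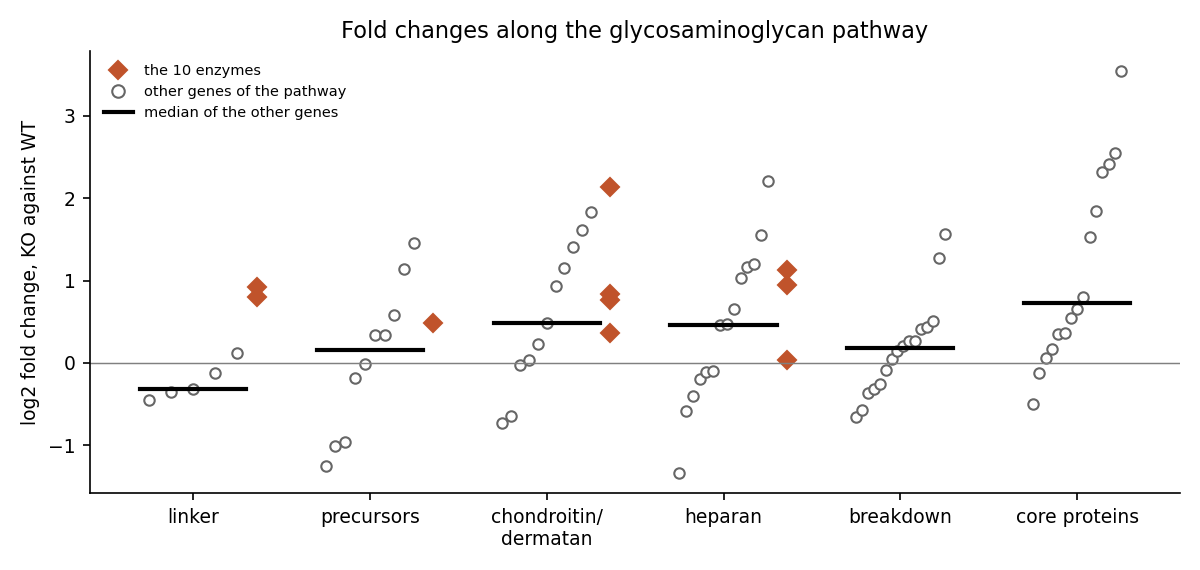
Log2 fold change of KO against WT for the 10 enzymes (red diamonds) and the other genes of the pathway (open circles, with their median as a black line), by role. Acan, which had no read in WT, is counted in the median and not drawn. The 10 enzymes lie between 0.04 and 2.14, and the other linker genes between -0.46 and 0.12.

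The core proteins that carry the chains had positive fold changes in 14 of 16 genes, with a median of 0.73, and in 8 of the 16 every KO library was above both WT libraries (13.5% of all genes). By the edgeR quasi-likelihood test 0 of 16 passed and 6 had an unadjusted p under 0.05 (5.84% of all genes). DESeq2 called 3 of the 16 (1.53% of all genes) and the edgeR likelihood-ratio test 1 (0.351%). The interstitial markers, of which Dcn and Vcan are also among the 16 core proteins, had every KO library above both WT libraries in 6 of 10. The endothelial markers had this in 4 of 10. The part of either marker list in these values was not tested. Hspg2, the gene of the heparan sulphate proteoglycan perlecan, and Bgn, that of the chondroitin and dermatan sulphate proteoglycan biglycan, had the smallest p-values (log2 fold changes 3.54 and 1.84, edgeR adjusted p = 0.810 for both). Acan, the gene of aggrecan, was picked out after its values were seen: it had no read in WT and 0.0948, 1.18 and 3.23 CPM in KO replicates 1, 2 and 3, the first of these being 3 reads. Leaving out WT replicate 1 gave the list a median of 1.87, leaving out WT replicate 2 one of 1.24, limma-voom 1.40 and length correction 0.46. Over all genes the median in the same fits was 0.15, 0.25, 0.07 and -0.10, in that order.

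The 10 enzymes did not share one profile over the libraries. The root mean square difference from their mean profile (log2 CPM centred on each gene's mean) was 0.38 to 0.54 for Xylt2, Ugdh, Chsy1, Chpf, Ext1, Ext2 and Ndst1, and 1.58 for Chst11, 2.45 for Xylt1 and 2.80 for Chst3. The tested genes nearest to the mean profile over the 5 libraries were Cdc42ep1 (0.05), Snap29 (0.05), Bag6 (0.06), Sec24d (0.07) and Ralgapb (0.08). They were the nearest of 13697 genes with enough reads, and nearer to it than any of the 10 enzymes. The mean profile, at -0.86 in WT replicate 1 and -0.32 in WT replicate 2, takes in values from 0 reads. These are Chst3 at -5.07 in WT replicate 1 and Xylt1 at -4.06 in WT replicate 2, so these nearest genes rest partly on them. With 5 libraries such likeness is a description only.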

How the data were processed

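Total RNA of mitral valve leaflets was made into libraries with the low-input SMART-Seq v4 kit, per the labels' protocols. The kit does not mark strand. The submitters' processing notes name the tools FastQC 0.11.5, cutadapt 1.11, HTSeq and DESeq2 and, as builds, mm10 and GRCm38, with no order. Aligner and annotation: not given in the sources used here. Raw counts per gene, in whole numbers, were deposited by the authors with 1 column per library. Their statistics columns were not used.

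The counts were fitted in edgeR 4.0.16 under R 4.3.3 (filterByExpr with a minimum count of 10, TMM, robust quasi-likelihood F test, two-sided, Benjamini-Hochberg over 14244 genes). Standard errors are the fold change divided by the root of the F statistic. Alternatives used DESeq2 1.42.0 and limma 3.58.1. Ratios were tested with SciPy 1.17.1. Fits were tested on simulated data. Transcript lengths (longest transcript) and coordinates are from GENCODE M21 on GRCm38, and 14131 tested genes had a length. Length trends were removed as offsets from a lowess fit per library (span 0.5). Poisson intervals (95%) and floors of 3 reads reflect counting error alone, because PCR copies were not marked by molecular identifiers.

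Groups come from library titles, and replicates are numbered in order of deposit. All 10 enzymes are named. Of each other list the 2 genes with the smallest p are named, as no gene was called, and the 5 genes nearest the mean enzyme profile with 20 or more normalized reads on average. Members and lists were chosen with earlier results of these data known.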

Additional observations from a re-analysis of the deposited data

How the results depend on the processing

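The edgeR quasi-likelihood test called 0 genes with all libraries. DESeq2 called 218, the likelihood-ratio test 50, and leaving out one library gave 0 to 245 (245 without WT replicate 1, a fit that holds 1 WT library and assumes that it varies like KO). In all 15 alternatives 0 of the 10 enzymes were called (adjusted p at least 0.148). The 3 enzymes without overlap became 3 to 8 when 1 library was left out (without KO replicate 1 Ndst1 took the place of Xylt2). In the 3 libraries that share the title code IR28N they were 10, 9 with KO above (41.2% of all genes) and Xylt1 with KO below. After length correction 1 was left (20.7% of all genes). Fewer libraries raise this count by construction (24.6% of all genes with 5 libraries, 60.8% without WT replicate 2, 77.2% in the 3). The median of the 10, 0.82, ran from 0.48 to 0.94 when one library was left out, was 1.07 on the shared title code and 0.21 after length correction. The median over all genes moved too, from -0.01 with all libraries to 0.15 without WT replicate 1 and 0.25 without WT replicate 2. It was -0.03 without KO replicate 3, 0.23 on the shared title code and -0.10 after length correction. Placing genes lacking reads in a group at their bounds left the medians of the 10 as they were.

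Leaving out one library in turn, log2 fold changes ran from -0.28 to 0.41 for Ext2, -0.12 to 1.45 for Xylt1, -0.13 to 1.43 for Ugdh, -0.18 to 1.40 for Chst3 and -0.37 to 2.68 for Chst11. Turned signs came from WT replicate 1 (Ext2 -0.28, Ugdh -0.13, Chst3 -0.18), WT replicate 2 (Xylt1 -0.09), KO replicate 1 (Ext2 -0.02), KO replicate 2 (Ext2 -0.0011, Chst11 -0.37) and KO replicate 3 (Xylt1 -0.12). Ext2 was -0.025 with DESeq2 size factors and in DESeq2, and Xylt1 was -1.12 on the shared title code. Length correction gave -0.083 for Ext2, -0.16 for Xylt1 and -0.17 for Ugdh. The cause of these turns was not tested. No fold is given for Xylt1 or Chst3 where no WT read remained. Each still counted as a positive value in the medians of the 10 from those fits. With 1 library left out in turn, the difference in log2 ratio was 0.54 to 1.22 for Ext1 to Ext2 and -0.62 to 0.10 for Chsy1 to Chpf. It was -1.64 to 5.57 for Xylt1 to Xylt2 and -1.98 to 5.80 for Chst3 to Chst11. In the fits that gave 5.57 and 5.80, the only WT library had 0 reads of Xylt1 or Chst3. These 2 values thus rest on the 0.5 reads added to each count. With all libraries and 5 reads added instead, 1.97 became 0.70 for Xylt1 to Xylt2. For Chst3 to Chst11, 1.91 became 0.41. No paired analysis was possible because the labels give no replicate numbers that pair WT with KO libraries. The title code, IR28N in 3 libraries and not said to be a batch, was tried as a covariate: 0 genes were called, the median of the 10 enzymes was 0.80 and that of the other synthesis genes 0.54, and all 10 enzymes stayed above 0 (Chst3 3.83, Chst11 0.81). A count of 0 allows up to 0.052 CPM for Xylt1 in WT replicate 2 and 0.114 for Chst3 in WT replicate 1. Xylt1 had 71 reads in KO replicate 3, which held 23361414 counted reads against 53789026 in WT replicate 2. Chst3 had 120 reads in KO replicate 1, which held 31358092 against 31398065 in WT replicate 1.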

Other observations

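The 16 genes of glycosaminoglycan breakdown, mostly lysosomal, were mixed. Of these, 10 had a positive and 6 a negative log2 fold change of KO against WT (median 0.18, with 49.4% of all genes positive). By the edgeR quasi-likelihood test 0 of 16 passed (0% of all genes) and 0 had an unadjusted p under 0.05 (5.84%). Every KO library was above both WT libraries in 2 (13.5% of all genes) and below both in 0 (11.1%). Hyal1, a hyaluronidase, had WT values of 5.75 and 28.7 CPM and KO values of 44.1, 34.6 and 46.1 (1.27, SE 0.72). Hexa, the alpha subunit of beta-hexosaminidase, had WT values of 149 and 332 CPM and KO values of 197, 136 and 150 (-0.58, SE 0.43), so the groups overlapped. Leaving out WT replicate 1 turned the median of the 16 to -0.25, leaving out WT replicate 2 gave 0.71 and length correction 0.11. Over all genes the median in the same fits was 0.15, 0.25 and -0.10, in that order.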
